A study of Mus musculus with 96 samples.

Results

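The clustered protocadherins are a family of adhesion proteins of the cell surface encoded by 3 neighbouring gene clusters on mouse chromosome 18. The genes described here are those whose GENCODE M21 symbol begins Pcdha or Pcdhb followed by a digit or c, or Pcdhg followed by a, b or c and a digit. This rule found 58 of the 19918 genes in the deposited tables. The alpha cluster held 14 of them, at chr18:36930184-37187661 on the plus strand of GRCm38. The beta cluster held 22, at chr18:37264938-37524479. The gamma cluster held 22, at chr18:37661793-37841873. The family came to attention because Pcdhb3 and Pcdhb8 had been called between XX and XY animals in earlier results of these data, so the members were chosen by the XX minus XY values and all values of that contrast are given here as a description.

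Most genes of these clusters have a promoter and a large first exon of their own, and single neurons are known to switch on a small and largely random set of them. In the alpha and gamma clusters each first exon is spliced to constant exons shared by the whole cluster, while beta genes consist of a variable exon alone. The proteins pair with identical copies on a neighbouring membrane and serve as a surface code by which a neuron tells its own branches from those of other neurons. The C-type genes at the ends of the alpha and gamma clusters (Pcdhac1, Pcdhac2, Pcdhgc3, Pcdhgc4 and Pcdhgc5) are regulated apart from the rest and are switched on in many neurons alike. Among them Pcdhac2 is known for the even spacing of serotonergic axons, Pcdhgc4 for the survival of interneurons and Pcdhgc3 for dendrite branching in the cortex.

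Bulk RNA sequencing of tissue punches from the nucleus accumbens (NAc) and the prefrontal cortex (PFC) of 48 mice gave 1 library per region and animal. The animals belonged to the FCG model, in which chromosomes and gonads vary separately. XXSry mice have 2 X chromosomes and testes formed under an Sry transgene, XX mice have ovaries, XY-Sry mice carry a Y chromosome without Sry (Y-) and have testes under the transgene, and XY- mice have that Y chromosome and ovaries. In this model testes and the Sry transgene always come together, so their parts cannot be told apart. Stressed animals underwent subchronic variable stress, which consisted of 3 restraint sessions of 1 hour on alternating days over 6 days, and control animals were left unstressed. Stressed and control animals numbered 6 and 6 for XXSry, 6 and 5 for XX, 6 and 6 for XY-Sry, and 6 and 7 for XY-. They came from cohorts of 23, 12 and 13 animals, and treatment went partly with cohort. Stressed and control animals with 2 X chromosomes (XX and XXSry mice together) numbered 7 and 7 in cohort 1, 1 and 4 in cohort 2, and 4 and 0 in cohort 3. Those with a Y chromosome numbered 5 and 4, 1 and 6, and 6 and 3 in the same order of cohorts. No source used here gives strain or age. A punch mixes neurons and glia of many kinds, so fewer cells that express a gene and less RNA per cell cannot be told apart.

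Library totals were 45.9 to 120.8 M counts in the NAc and 67.6 to 104.4 M in the PFC. The chromosome labels matched the counts of every library: Xist was at 1411 to 2196 CPM (counts scaled to a common library total) in the 23 XX animals and at most 2.92 CPM in the 25 XY animals in the NAc, and the Y-linked gene Ddx3y was at most 0.145 CPM in XX animals and at least 64.0 CPM in XY animals there. In the PFC Xist was at 838 to 1224 CPM in XX animals and at most 0.689 CPM in XY animals, and Ddx3y was at most 0.0877 CPM in XX animals and at least 62.05 CPM in XY animals. The tissue labels also matched their markers. The 10 striatal projection neuron markers summed to 1798 to 4718 CPM in NAc libraries and to 142 to 216 CPM in PFC libraries. The 10 markers of cortical excitatory neurons summed to 301 to 1213 CPM in NAc libraries and to 2130 to 2599 CPM in PFC libraries, so NAc libraries held some of this signal in differing amounts.

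All 58 genes had counts in both regions. Together they took 0.0687% ± 0.00429 of the counts of a NAc library and 0.0611% ± 0.00319 of those of a PFC library (SD, n = 48 each). The gamma cluster gave most of this, 0.0409% in the NAc and 0.0360% in the PFC. The beta cluster gave 0.0221% in the NAc and 0.0168% in the PFC, and the alpha cluster 0.00567% and 0.00827% in the same order of regions.

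Genes of different length were compared by CPM (with library sizes scaled by the trimmed mean of M values, TMM) per kb of annotated exon. On this scale the median was highest for C-type genes and lowest for the other alpha genes in both regions. The median over genes was 4.49 CPM per kb in the NAc and 7.93 in the PFC for the 5 C-type genes. For the 19 other gamma genes it was 2.63 in the NAc and 2.04 in the PFC, for the 22 beta genes 2.06 and 1.56, and for the 12 other alpha genes 0.401 and 0.496. Both kinds of length gave nearly the same order of genes. When the length was that of the exon no other member shares, the rank correlation with the order by whole exon length was 0.943 in the NAc and 0.920 in the PFC. The values themselves moved: per kb of unshared exon Pcdhgc5 stood at 14.8 in the NAc and 23.1 in the PFC, and Pcdhac2 at 8.73 and 15.4. The annotated exons of alpha and gamma genes include the constant exons shared by their cluster, which beta genes lack. No source used here says how reads in shared exons were counted. Levels and shares of alpha and gamma genes set against those of beta genes are uncertain to that extent.

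**Figure D1:**
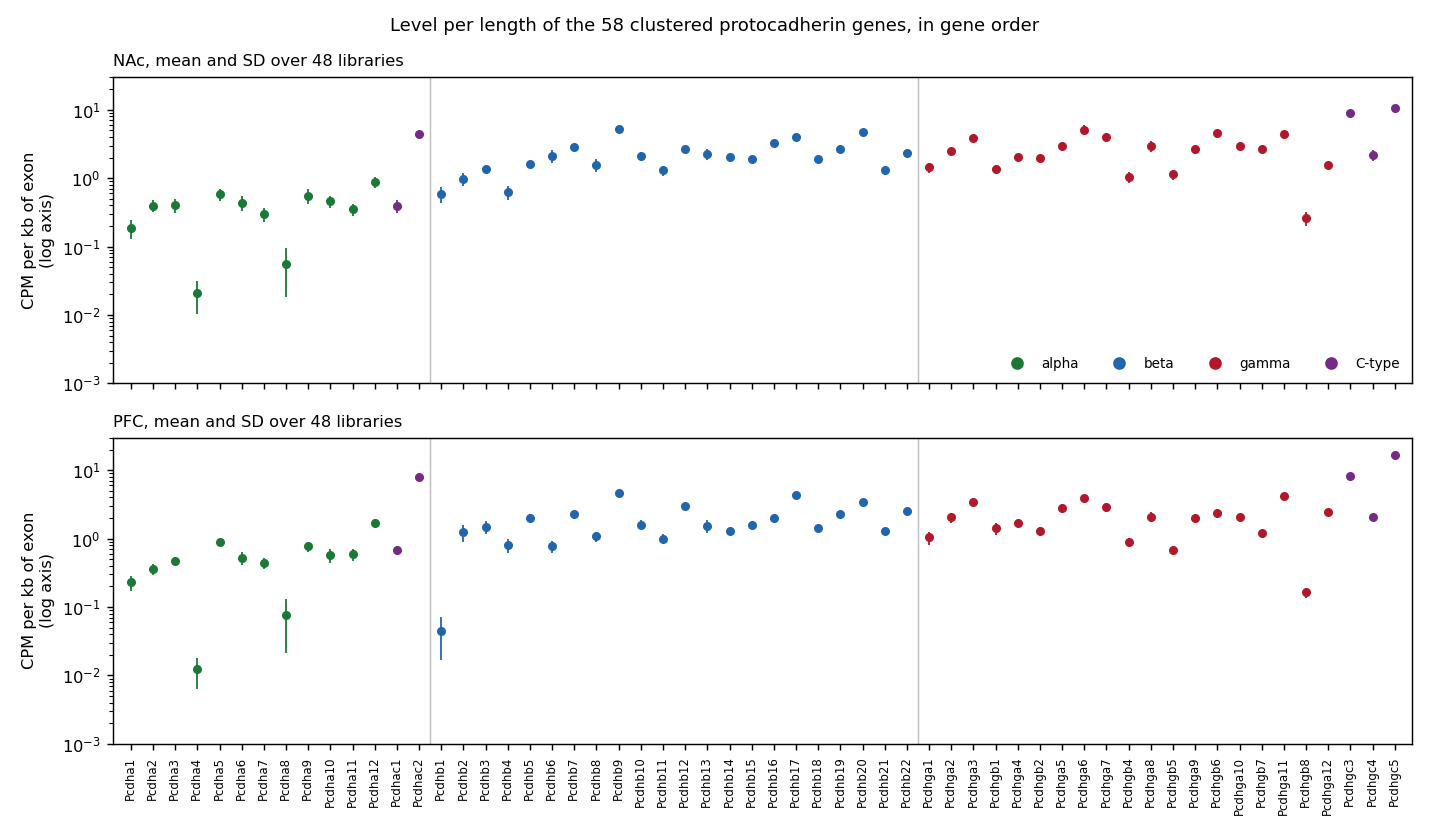
Level of each of the 58 genes in the NAc (upper panel) and the PFC (lower panel), as CPM per kb of exon on a log axis, in gene order along the chromosome. Points are means and bars the SD over 48 libraries of a region, and colour marks the family. Pcdhgc5, at the end of the gamma cluster, is highest in both panels (10.7 and 16.7 CPM per kb), and Pcdha4 is lowest (0.0206 and 0.0123).

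In the gamma cluster the highest gene was Pcdhgc5, at 10.7 ± 0.992 CPM per kb in the NAc and 16.7 ± 1.27 in the PFC (SD, n = 48 libraries each). Pcdhgc3 followed with 9.01 ± 0.899 CPM per kb in the NAc and 8.30 ± 0.849 in the PFC. These C-type genes lay well apart from the variable gamma genes, of which the highest were Pcdhga6 in the NAc (5.12 CPM per kb) and Pcdhga11 in the PFC (4.13). Pcdhgc4, the remaining C-type gene of the cluster, lay among the variable genes, at 2.16 ± 0.389 CPM per kb in the NAc and 2.07 ± 0.197 in the PFC. The lowest gamma gene was Pcdhgb8, at 0.261 CPM per kb in the NAc and 0.163 in the PFC. Next to it stood Pcdhgb4 (1.05) and Pcdhgb5 (1.13) in the NAc, and Pcdhgb5 (0.679) and Pcdhgb4 (0.883) in the PFC.

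In the alpha cluster Pcdhac2 was highest, at 4.49 ± 0.549 CPM per kb in the NAc and 7.93 ± 0.640 in the PFC, and alone took 48.96% of the cluster's counts in the NAc and 53.70% in the PFC. Pcdha12 came next with 0.876 CPM per kb in the NAc and 1.68 in the PFC, and Pcdha5 after it with 0.581 and 0.902. Pcdhac1, the other C-type gene here, had 0.397 ± 0.0871 CPM per kb in the NAc and 0.689 ± 0.0853 in the PFC, within the span of the variable alpha genes. At the other end Pcdha4 had 0.0206 CPM per kb in the NAc and 0.0123 in the PFC, Pcdha8 had 0.0563 and 0.0762, and Pcdha1 had 0.188 and 0.228. Pcdha4 and Pcdha8 rested on few reads. Pcdha4 had 0 to 21 counts per NAc library and 0 to 13 per PFC library, and Pcdha8 had 0 to 90 and 1 to 86. In each region 2 genes had a library at 0, Pcdha4 and Pcdha8 in the NAc and Pcdha4 and Pcdhb1 in the PFC.

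The beta cluster was more even. Pcdhb9 was highest per length, at 5.16 CPM per kb in the NAc and 4.66 in the PFC, with Pcdhb20 (4.72 and 3.39) and Pcdhb17 (3.96 and 4.32) close behind. No beta gene dominated the cluster: the one with the most counts held 9.04% of them in the NAc (Pcdhb19) and 11.4% in the PFC (Pcdhb17). The lowest were Pcdhb1 (0.583 CPM per kb), Pcdhb4 (0.627) and Pcdhb2 (0.979) in the NAc, and Pcdhb1 (0.0439), Pcdhb6 (0.770) and Pcdhb4 (0.799) in the PFC.

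Neighbouring members resemble each other in sequence, so reads can be shared between them. As a description of this, every window of 50 bp, the read length, in a member's unshared exon was looked up in all other members. In the alpha genes the median share of windows found elsewhere was 14.7%, with the highest share in Pcdha7 (23.4%) and 17.4% in Pcdha8. Pcdha7 and Pcdha8 each shared more windows with the other than with any other member. The median was 3.48% in beta genes and 1.45% in variable gamma genes, and no C-type gene held such a window (0%). Pcdhb1 held none either, and 7.64% of the windows of Pcdhb6 were shared, most often with Pcdhb8. In addition 11 members overlap an exon of another measured gene (Pcdha4, Pcdha6, Pcdha11, Pcdha12, Pcdhga7, Pcdhga8, Pcdhga10, Pcdhga11, Pcdhga12, Pcdhgb7 and Pcdhgc3), and no source used here gives the strand setting of the counting. The counts of these genes are uncertain to that extent.

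Comparison of the NAc with the PFC of the same animals separated the clusters. Variable gamma genes were mostly higher in the NAc, alpha genes mostly lower, beta genes moved both ways with more of them higher, and C-type genes were mostly lower. The counts were fitted with edgeR's quasi-likelihood test with the animal as a block. Genes with an adjusted p (Benjamini-Hochberg over all genes) below 0.05 are called. In this fit 88.1% of all 18704 genes tested were called, 44.4% higher and 43.6% lower in the NAc. Of the 57 members tested, 33 were called higher and 21 lower, so their share called lay near that of all genes. Pcdha4 did not pass the filter on low counts. The median log2 fold change, NAc minus PFC, was 0.14 over the members and 0.01 over all genes.

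**Figure D2:**
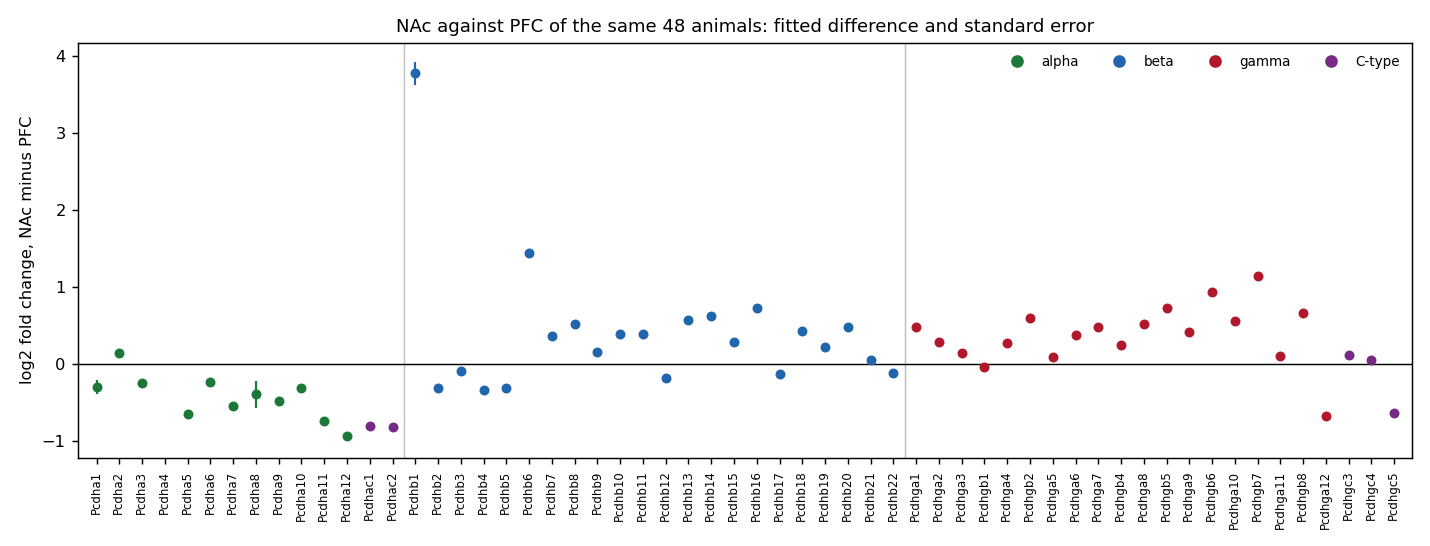
Fitted log2 fold change, NAc minus PFC, of the 57 members tested in 48 animals, in gene order, with standard errors as bars and the family as colour. Values above 0 are higher in the NAc. Pcdhb1 stands highest at 3.78, variable gamma genes lie mostly above 0, and Pcdha12, Pcdhac2, Pcdhac1 and Pcdha11 are lowest (-0.94 to -0.74).

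Among variable gamma genes 17 of 19 were called higher in the NAc, with a median log2 fold change of 0.41, and 1 lower. Pcdhgb7 had 7.02 to 15.4 CPM in NAc libraries (median 12.4) and 3.76 to 7.93 CPM in PFC libraries (median 5.61). Its log2 fold change was 1.14 (SE 0.032, adjusted p = 7.68e-37 in edgeR). Pcdhgb6, its neighbour but one, followed with 21.3 ± 2.71 CPM in the NAc and 11.2 ± 1.63 CPM in the PFC (SD, n = 48 each) and a log2 fold change of 0.93 (SE 0.031). The single variable gamma gene called lower was Pcdhga12, the last before the C-type genes, with 10.4 ± 1.08 CPM in the NAc, 16.5 ± 1.54 CPM in the PFC and a log2 fold change of -0.68 (SE 0.027). Pcdhga12 was lower in the NAc of every one of the 48 animals. Pcdhgb1, at -0.04 (SE 0.043), was not called.

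Among beta genes 14 of 22 were called higher in the NAc and 7 lower, with a median log2 fold change of 0.32. Pcdhb1, the first gene of the cluster (chr18:37264938-37267525), had 0.749 to 2.14 CPM in NAc libraries (median 1.51) and 0 to 0.350 CPM in PFC libraries (median 0.114). The ranges of the regions did not overlap, although the PFC values rested on at most 25 counts. The fitted log2 fold change was 3.78 (SE 0.15, adjusted p = 1.03e-29 in edgeR). Pcdhb6 (chr18:37333921-37337674) had 4.69 to 13.8 CPM in NAc libraries (median 7.79) and 2.08 to 4.65 CPM in PFC libraries (median 2.83), again without overlap, and a log2 fold change of 1.44 (SE 0.033, adjusted p = 1.87e-40 in edgeR). Pcdhb1 and Pcdhb6 were the only members whose ranges did not overlap between regions; over all genes tested the ranges did not overlap for 17.4%.

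Along the beta cluster the direction ran in stretches of neighbouring genes. Between Pcdhb1 and Pcdhb6 lie 4 genes that were all called lower in the NAc, Pcdhb2 (-0.32), Pcdhb3 (-0.10), Pcdhb4 (-0.34) and Pcdhb5 (-0.32). From Pcdhb6 to Pcdhb11 every gene was called higher, with log2 fold changes of 0.15 (Pcdhb9) to 1.44. Further along, Pcdhb12 (-0.18), Pcdhb17 (-0.13) and Pcdhb22 (-0.12) were called lower, and Pcdhb21 (0.05, SE 0.032) was not called. Together the members held 0.0687% of raw counts in the NAc and 0.0611% in the PFC. After TMM scaling they summed to 654 and 642 CPM in the same order. Fold changes near 0 therefore depend on how the libraries were scaled.

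Alpha genes moved the other way. Of the 11 variable alpha genes tested 10 were called lower in the NAc and 1 higher, with a median log2 fold change of -0.40. Pcdha12 (chr18:37020149-37187657) had 2.96 to 6.69 CPM in NAc libraries (median 4.58) and 6.31 to 11.8 CPM in PFC libraries (median 8.91), with a log2 fold change of -0.94 (SE 0.034, adjusted p = 7.38e-32 in edgeR). The ranges overlapped, but the NAc value was the lower in each of the 48 animals. Pcdha11 followed at -0.74 (SE 0.042), and the single higher one was Pcdha2, at 0.14 (SE 0.046).

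The C-type genes did not move as a block. Pcdhac2, the member known for its role in serotonergic axons, had 17.3 to 34.8 CPM in NAc libraries (median 25.9) and 29.9 to 54.2 CPM in PFC libraries (median 46.8), and was lower in the NAc of all 48 animals. Its log2 fold change was -0.83 (SE 0.025, adjusted p = 7.73e-35 in edgeR). Pcdhac1, its neighbour, had 2.15 ± 0.472 CPM in the NAc and 3.73 ± 0.462 CPM in the PFC, and a log2 fold change of -0.81 (SE 0.054). Pcdhgc5, the most abundant member, had 56.8 to 99.9 CPM in NAc libraries (median 80.2) and 97.1 to 142.8 CPM in PFC libraries (median 127.4). Its log2 fold change was -0.64 (SE 0.024, adjusted p = 4.98e-31 in edgeR), again lower in all 48 animals. Pcdhgc3 was called higher in the NAc by a small amount, 0.12 (SE 0.025), and Pcdhgc4, at 0.05 (SE 0.034, adjusted p = 0.190 in edgeR), was not called and lay higher in 24 animals and lower in 24. Pcdhgc5 took 20.96% of the gamma cluster's counts in the NAc and 33.55% in the PFC.

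Counting animals rather than means, 20 of the 58 members lay on 1 side in all 48 animals, as did 34.2% of all genes tested (16.6% higher and 17.6% lower in the NAc). The 15 higher in the NAc were 8 beta genes (Pcdhb1, Pcdhb6, Pcdhb7, Pcdhb8, Pcdhb10, Pcdhb13, Pcdhb14 and Pcdhb16) and 7 variable gamma genes (Pcdhga7, Pcdhga9, Pcdhga10, Pcdhgb2, Pcdhgb5, Pcdhgb6 and Pcdhgb7). The 5 lower in the NAc were Pcdha12, Pcdhac1, Pcdhac2, Pcdhga12 and Pcdhgc5.

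Cell type markers also differed between the regions. Of 10 interneuron markers 5 were called higher and 5 lower in the NAc. In the NAc 10 of 10 general neuron markers were called lower (7197 ± 545 summed CPM in the NAc, 11871 ± 401 in the PFC), 9 of 10 cortical excitatory markers lower, 10 of 10 striatal projection markers higher, and 10 of 10 oligodendrocyte markers higher (5885 ± 1130 summed CPM in the NAc, 1098 ± 253 in the PFC). Their part in the members' differences was not tested. In the 24 animals whose NAc library held the least cortical marker signal (at most 681 summed CPM), 33 members passed the test as higher in the NAc and 19 as lower, where 84.4% of all genes passed.

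Related genes gave a background to this pattern. Of 12 nonclustered protocadherins, adhesion genes that lie outside the clusters, 2 were called higher and 9 lower in the NAc, with Pcdh7 at -1.16 and Pcdh1 at -1.04 among the lowest and a median of -0.57. Of 30 tested genes known to govern promoter choice in the clusters (CTCF and cohesin, DNA methylation and chromatin silencing), 21 were called higher and 4 lower in the NAc. These included the cohesin subunits Stag1 (0.68, SE 0.018) and Smc3 (0.60, SE 0.021), the cohesin loader Nipbl (0.58, SE 0.021) and the DNA demethylase Tet1 (0.84, SE 0.023). Ctcf itself, whose protein binds the promoters and enhancers of the clusters, was called at a log2 fold change of 0.04 (SE 0.013). Of 26 signalling partners of the proteins 6 were called higher, among them the kinases Stk26 (3.14, SE 0.043) and Wnk1 (0.59, SE 0.017), and 16 lower, among them Cyfip2 of the WAVE complex (-0.97, SE 0.024) and the synaptic adhesion gene Nlgn1 (-0.63, SE 0.020). Since most genes of the genome were called in this comparison, these counts describe the lists and set none of them apart.

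The difference between regions was also tested for dependence on treatment and on gonads. No gene was called in either test (0% of 18704). At an unadjusted p below 0.05 there were 6 of 57 members for treatment (4.80% of all genes) and 2 of 57 for gonads (5.37% of all genes).

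The level of a member in an animal's NAc tended to go with its level in the same animal's PFC. After group and cohort means were removed, the correlation of log2 CPM between the regions over 48 animals had a median of 0.379 over 57 members, against 0.0745 over all 19058 genes tested in both regions (quartiles -0.0496 and 0.202). It was above 0.3 for 36 members (63.2%) and for 11.8% of all genes. The medians were 0.414 in beta genes, 0.413 in variable gamma genes, 0.246 in variable alpha genes and 0.193 in C-type genes. Pcdhga5 (0.669) and Pcdhb11 (0.665) were highest and Pcdhac1 (-0.160) was lowest. The correlations are descriptions over the same 48 animals, whose libraries differ in depth.

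**Figure D3:**
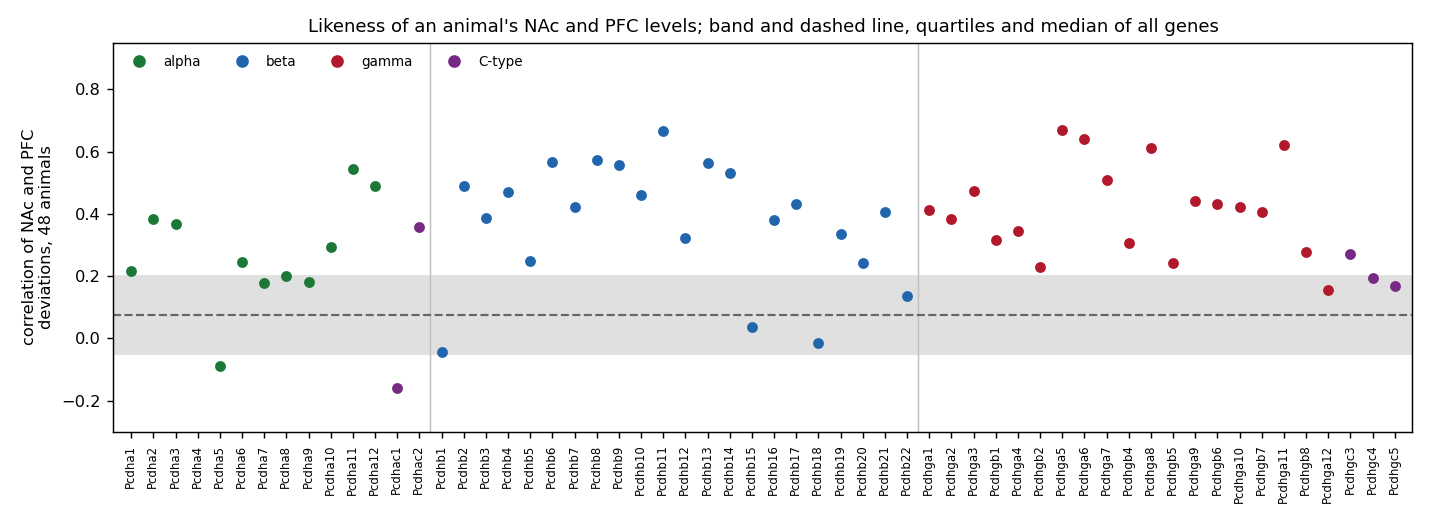
Correlation between NAc and PFC levels of the same 48 animals, after group and cohort means were removed, for each member in gene order, with the family as colour. The dashed line is the median of all 19058 genes (0.0745) and the band their quartiles (-0.0496 to 0.202). Most beta and variable gamma genes lie above the band, and Pcdhac1 lies lowest (-0.160).

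Within a region, members that lie side by side varied together more than members far apart. For variable gamma genes in the NAc the median correlation over 48 animals was 0.543 for adjacent genes and 0.347 for genes 6 or more places apart, and in the PFC it was 0.267 and 0.200. For beta genes it was 0.398 and 0.237 in the NAc, and 0.324 and 0.201 in the PFC. For variable alpha genes it was 0.291 and 0.207 in the NAc, and 0.231 and 0.105 in the PFC. The fall was not steady there, since alpha genes 2 to 5 places apart had a median of 0.0123 in the PFC. The points of each correlation share library depth and cell mix. Neighbouring members can also share reads, and the part of this in the correlations was not tested. The pair Pcdhac2 and Pcdhgc5, which lie in different clusters and share no window of read length, reached 0.724 in the NAc and 0.717 in the PFC. The highest pair in the NAc was Pcdhga7 with Pcdhga8 (0.798), which have Pcdhgb4 between them and overlap the same non-member gene. The highest pair of beta genes in the PFC was Pcdhb3 with Pcdhb5 (0.692).

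XX animals were set against XY animals, each kind of gonad and treatment weighted equally. This contrast chose the family, so its values carry no test of the members. In the NAc 2 members, Pcdha8 and Pcdhb8, were among the 0.584% of 19684 genes called, and in the PFC 4 members, Pcdha8, Pcdhb3, Pcdhb5 and Pcdhb8, were among the 1.12% of 19292 genes called. All of these were higher in XX animals. The counts moved with single libraries, to between 0 and 3 in the NAc and between 3 and 8 in the PFC when each library was left out in turn. The members just inside the threshold were Pcdha8 in the NAc (log2 fold change 1.06) and Pcdhb3 in the PFC (0.31), and the nearest member outside it was Pcdhb6 (0.29) in the NAc and Pcdhb9 (0.15) in the PFC.

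**Figure D4:**
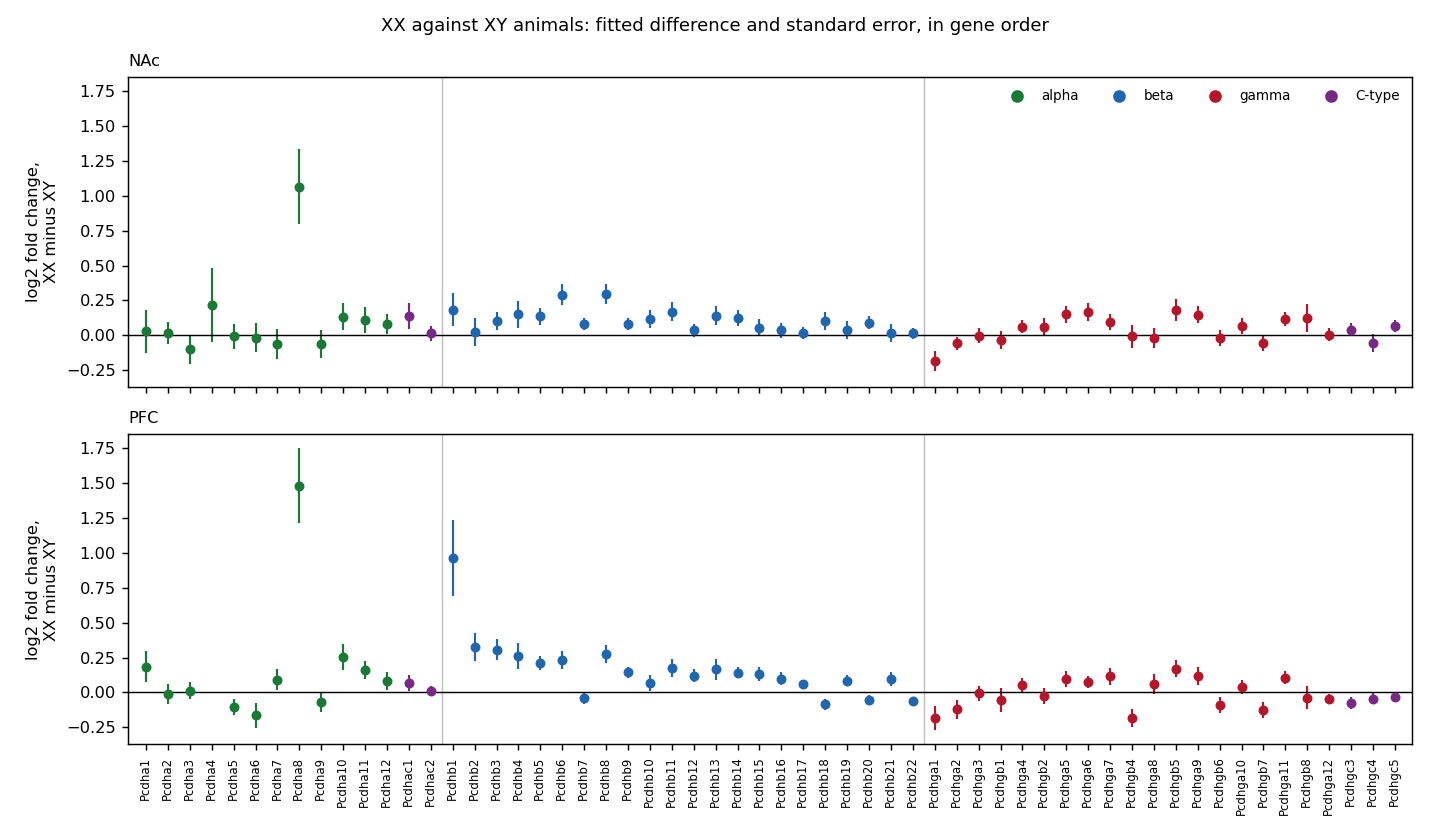
Fitted log2 fold change, XX minus XY, of each member tested in the NAc (upper panel) and the PFC (lower panel), in gene order, with standard errors as bars and the family as colour. Values above 0 are higher in XX animals. Pcdha8 is highest in both panels (1.06 and 1.48) with wide bars, and all 22 beta genes in the NAc and 18 of 22 in the PFC lie above 0.

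Pcdha8 (chr18:36992371-37187657) showed the largest difference and was a gene of few reads. In the NAc it had 0.183 to 0.811 CPM in XX animals (median 0.345) and 0 to 0.488 CPM in XY animals (median 0.183), with a log2 fold change of 1.06 (SE 0.27). In the PFC it had 0.151 to 1.08 CPM in XX animals (median 0.615) and 0.0154 to 0.954 CPM in XY animals (median 0.193), with a log2 fold change of 1.48 (SE 0.27). The ranges overlapped in both regions. By genotype the PFC medians were 0.507 CPM in XXSry and 0.664 in XX mice, and 0.200 in XY-Sry and 0.156 in XY- mice. Within cohorts 1, 2 and 3 the log2 fold change was 0.90, 0.64 and 1.57 in the NAc, against 1.39, 1.70 and 1.74 in the PFC. All XX animals of cohort 3 were stressed, while its XY animals were stressed or control. Pcdha7, which shares the most windows with Pcdha8, lay at -0.06 in the NAc. Within cohorts 1, 2 and 3 Pcdha7 lay at -0.15, 0.08 and 0.01 in the NAc. In the PFC it lay at 0.07 (SE 0.11), 0.17 (SE 0.13) and -0.02 (SE 0.19).

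Pcdhb8 (chr18:37355121-37358604) was among the genes called in both regions. In the NAc it had 4.78 to 8.86 CPM in XX animals (median 5.54) and 2.96 to 6.61 CPM in XY animals (median 4.78), with a log2 fold change of 0.29 (SE 0.072). In the PFC it had 3.10 to 5.35 CPM in XX animals (median 4.01) and 2.67 to 4.85 CPM in XY animals (median 3.42), with a log2 fold change of 0.28 (SE 0.063). XX mice had the highest mean of the 4 genotypes in both regions, 6.63 CPM in the NAc and 4.35 in the PFC. Within cohorts 1, 2 and 3 the difference was 0.35, 0.32 and 0.38 in the NAc and 0.41, 0.12 and 0.28 in the PFC.

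Pcdhb3 (chr18:37300799-37304585) and Pcdhb5 (chr18:37320381-37323915) were among the genes called in the PFC. Pcdhb3 had 4.80 to 9.12 CPM in XX animals (median 6.10) and 3.54 to 6.84 CPM in XY animals (median 4.71) there, with a log2 fold change of 0.31 (SE 0.075). In the NAc its log2 fold change was 0.10 (SE 0.068). Pcdhb5 had 5.92 to 9.17 CPM in XX animals (median 7.62) and 4.64 to 8.33 CPM in XY animals (median 6.68) in the PFC, with a log2 fold change of 0.21 (SE 0.049). By cohort (1, 2 and 3) Pcdhb3 differed by 0.31, 0.36 and 0.22 there, and Pcdhb5 by 0.19, 0.26 and 0.21.

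**Figure D5:**
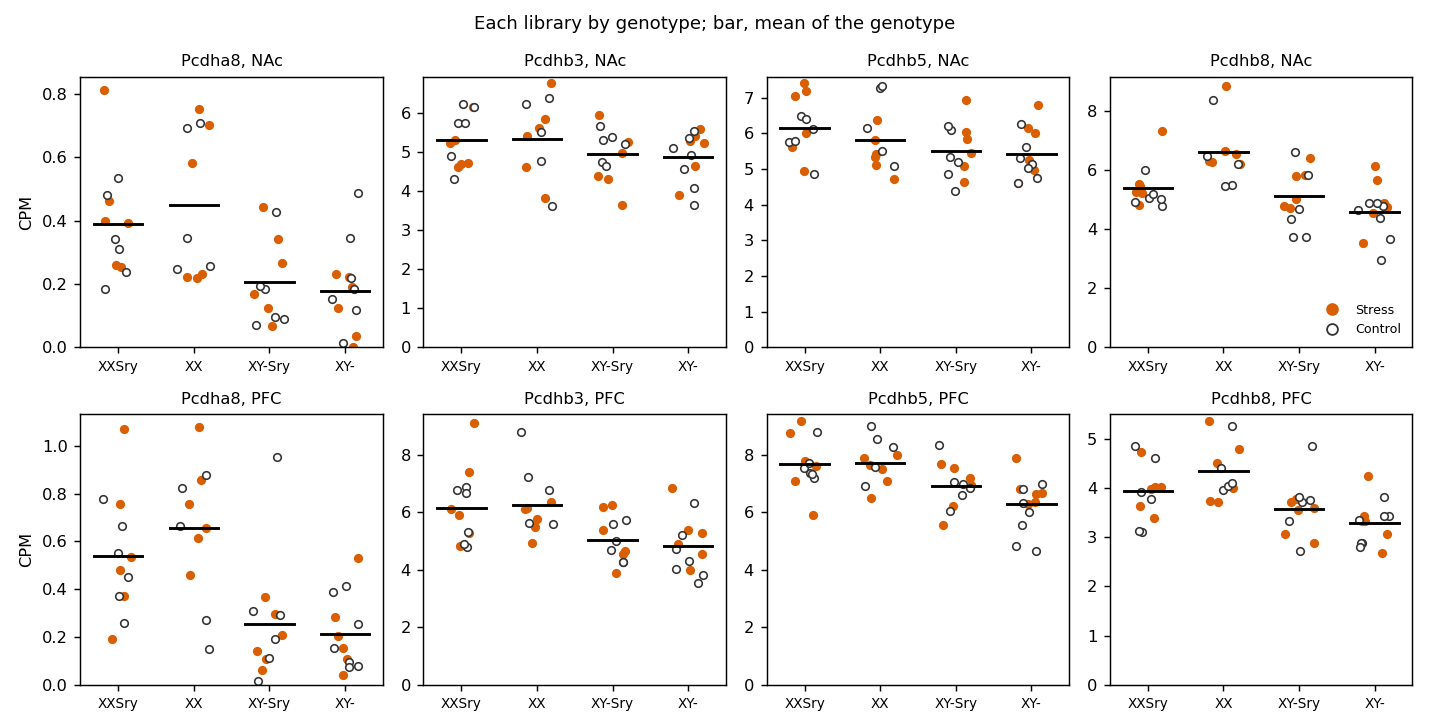
CPM of Pcdha8, Pcdhb3, Pcdhb5 and Pcdhb8 in every library of the NAc (upper row) and the PFC (lower row) by genotype, with filled points for stressed and open points for control animals and a bar at each genotype's mean. The XXSry and XX bars lie above the XY-Sry and XY- bars in each panel, and the points of all 4 genotypes overlap. In the PFC the Pcdhb5 means are 7.69 and 7.72 CPM in XXSry and XX mice, and 6.92 and 6.29 CPM in XY-Sry and XY- mice.

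Other members with the highest values in the PFC were Pcdhb1 (0.96, SE 0.27), at 0.0273 to 0.350 CPM in XX animals and 0 to 0.179 CPM in XY animals, and Pcdhb2 (0.32, SE 0.10). The lowest were Pcdhga1 (-0.18), Pcdhgb4 (-0.18) and Pcdha6 (-0.17). In the NAc Pcdhb6 had 5.73 to 13.8 CPM in XX animals (median 8.73) and 4.69 to 9.98 CPM in XY animals (median 7.17). The lowest in the NAc were Pcdhga1 (-0.18), Pcdha3 (-0.10) and Pcdha7 (-0.06). None of these was among the genes called.

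The families differed in the share of genes above 0 in this description. All 22 beta genes in the NAc and 18 of 22 in the PFC lay above 0, with medians of 0.10 and 0.14. The median over all genes was -0.0002 in the NAc and 0.0009 in the PFC. Members of a cluster varied together across animals, so they are not independent observations. Of variable gamma genes 11 of 19 lay above 0 in the NAc and 9 of 19 in the PFC (medians 0.06 and -0.01). Of variable alpha genes 7 of 12 lay above 0 in the NAc and 7 of 11 in the PFC (medians 0.02 and 0.08). Of C-type genes 4 of 5 lay above 0 in the NAc and 2 of 5 in the PFC (medians 0.04 and -0.04). Every family median was thus above 0 in the NAc. The beta cluster summed to 218 ± 17.4 CPM in XX and 204 ± 15.6 CPM in XY animals in the NAc, and to 183 ± 11.16 CPM in XX and 170 ± 11.04 CPM in XY animals in the PFC (SD, n = 23 and 25). The PFC difference was not alike in all groups. In PFC controls the mean sums were 178 CPM in XXSry and 179 in XY-Sry mice, and 187 in XX and 161 in XY- mice. In stressed animals they were 188, 171, 180 and 173 CPM in the same order. The median of the beta genes in the PFC was 0.07 among animals with testes and 0.20 among those with ovaries. In the NAc it was 0.08 and 0.11. Within cohorts 1, 2 and 3 the beta genes above 0 numbered 17, 21 and 21 in the NAc, and 17, 16 and 19 in the PFC. In the PFC the first 6 genes of the cluster, a grouping chosen after their values were seen, ran from 0.21 to 0.96 with a median of 0.28, and the 16 genes after them had a median of 0.10.

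The same contrast within each kind of gonad is likewise given as a description. Among animals with testes 0 members were called in the NAc (0.132% of all genes) and 0 in the PFC (0.171%). Among animals with ovaries 1 member was called in the NAc (0.533% of all genes) and 4 in the PFC (0.560%). Whether this contrast differed between the gonads was not tested for the members. No gene within 300 kb of the clusters that is not a member was called, of 33 tested in the NAc and 30 in the PFC. Of nonclustered protocadherins, promoter-choice genes and signalling partners 0 were called in either region. The share of all genes called in this contrast, given above, was small in both regions. Counts of 0 in lists of this size therefore do not set the members apart from other genes. Markers of other cell types also moved in this contrast in the PFC. Called lower in XX animals were 1 of 9 striatal projection markers (Drd2, -0.65, adjusted p = 0.00785), 1 of 10 microglial markers (C1qc, -0.20, adjusted p = 0.0382) and 1 of 10 astrocyte markers (Gja1, -0.10, adjusted p = 0.0425, all in edgeR). The log2 fold change lay below 0 for 7, 8 and 9 members of these lists in the same order, and for 9 of 9 meningeal and 6 of 6 blood markers, with medians of -0.20 and -0.28 in these last 2 lists and none called. The striatal markers summed to 157 ± 6.27 CPM in XX and 168 ± 16.4 CPM in XY animals, and the microglial markers to 410 ± 23.7 CPM in XX and 433 ± 48.2 CPM in XY animals. In the NAc 6 of 6 blood markers also lay below 0 (median -0.29), and no marker of any list was called. There 9 of 10 striatal projection markers lay above 0 (median 0.08), unlike in the PFC, and 7 of 10 cortical excitatory markers below 0 (median -0.12). The summed meningeal markers of the PFC were at 393 ± 111 CPM in XX and 450 ± 168 CPM in XY animals. The part of all these markers in the members' values was not tested.

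Stress against control addressed whether restraint altered these genes. No member was called in either region, nor was any other gene (0% of 19684 genes in the NAc and of 19292 in the PFC, edgeR). At an unadjusted p below 0.05 there were 3 of 58 members in the NAc (4.59% of all genes) and 9 of 57 in the PFC (5.73% of all genes), and DESeq2 called no member. The member with the smallest p in the NAc was Pcdhb13, with 5.89 to 11.7 CPM in stressed animals (median 9.24) and 4.99 to 10.9 CPM in controls (median 7.91). The groups overlapped and its log2 fold change was 0.21 (SE 0.077, adjusted p = 0.997 in edgeR). In the PFC it was Pcdha11, with 3.25 to 6.86 CPM in stressed animals (mean 4.69 ± 1.01 SD, n = 24) and 2.80 to 5.27 CPM in controls (4.14 ± 0.677 SD, n = 24), a log2 fold change of 0.20 (SE 0.069) and an adjusted p of 0.646 in edgeR.

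Within single genotypes no gene was called after stress either (0% in each of the 8 comparisons, edgeR). At an unadjusted p below 0.05 in the PFC there were 6 of 57 members in XXSry mice (5.80% of all genes), 3 in XX mice (3.02%), 6 in XY-Sry mice (6.30%) and 13 in XY- mice (9.13%). In the NAc there were 1, 2, 7 and 3 of 58 members in the same order of genotypes (2.49%, 3.84%, 6.20% and 4.45% of all genes). In the PFC of XY- mice 50 of 57 members had a log2 fold change above 0, with a median of 0.11, while 49.9% of all genes lay above 0, with a median of 0.00. Pcdhgb2 had the smallest p (0.34, SE 0.11, adjusted p = 0.313 in edgeR). The members summed to 649 ± 33.3 CPM in stressed XY- mice (n = 6) and 601 ± 57.2 CPM in XY- controls (n = 7) there, and XY- control animal 16 was lowest, at 498 CPM. Without this library the control mean was 619 CPM, 44 of 57 members lay above 0 with a median of 0.08, and 4 members had an unadjusted p below 0.05 (5.76% of all genes). That count of 13 also moved to 8 without XY- control animal 19 and to 7 and 6 without XY- stress animals 26 and 41. In the PFC of XY-Sry mice Pcdhb18 lay at -0.35 (SE 0.079, adjusted p = 0.392 in edgeR). The members with the smallest p were Pcdhga4 (0.33) in XXSry and Pcdha11 (0.41) in XX mice in the PFC. In the NAc they were Pcdhb20 (0.19) in XXSry, Pcdhb11 (0.37) in XX, Pcdhb13 (0.34) in XY-Sry and Pcdha2 (0.47) in XY- mice.

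The tests of whether stress acted differently by chromosomes or by gonads called no gene in either region (0%, edgeR). At an unadjusted p below 0.05 there were 6 of 57 members by chromosomes (3.14% of all genes) and 3 by gonads (6.72%) in the PFC, and 3 of 58 by each in the NAc (3.02% and 2.94%).

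Testes against ovaries called 0.0102% of genes in the NAc and 0.0467% in the PFC, none of them a member (0 of 58 and 0 of 57, edgeR, and 0 in DESeq2). At an unadjusted p below 0.05 there were 3 of 58 members in the NAc (9.28% of all genes) and 2 of 57 in the PFC (6.74%). In the NAc Pcdhgb8 had the smallest p, with 0.495 to 1.92 CPM in animals with testes (median 1.33) and 0.604 to 1.68 CPM in animals with ovaries (median 1.07), and a log2 fold change of 0.24 (SE 0.10, adjusted p = 0.509 in edgeR). In the PFC it was Pcdhb18, with 5.71 to 9.15 CPM in animals with testes (median 7.49) and 5.66 to 8.997 CPM in animals with ovaries (median 6.93), and a log2 fold change of 0.11 (SE 0.038, adjusted p = 0.455 in edgeR). The groups overlapped almost completely for both genes.

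Cohort was tested over the same libraries. In the joint test of all 3 cohorts no gene was called in the NAc (0%) and 0.181% of genes in the PFC, none of them a member. The member with the smallest p in that test was Pcdha11 in the PFC (adjusted p = 0.106 in edgeR). Cohorts 2 and 3 were also each set against cohort 1. In the PFC 0.482% of genes were called in cohort 3, among them 1 member, Pcdha11, and 0% in cohort 2. Pcdha11 had 2.80 to 4.79 CPM in cohort 3 (median 4.19), 3.34 to 5.34 CPM in cohort 2 (median 3.95) and 3.43 to 6.86 CPM in cohort 1 (median 4.76). It was lower in cohort 3 than in cohort 1, although the ranges overlapped, with a log2 fold change of -0.33 (SE 0.081, adjusted p = 0.0423 in edgeR). In the NAc no member was called in either cohort, and the smallest adjusted p was 0.603 in cohort 3 and 1 in cohort 2 (edgeR).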

How the data were processed

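Per the labels' protocols, polyadenylated RNA (100 ng, 15 amplification cycles) was sequenced as paired reads of 50 bp, and the tools in the submitters' processing notes, named without roles, were HISAT2 2.2.0, Trimmomatic 0.38, FastQC 0.11.9, DESeq2 and edgeR, with the build GRCm38. No source used here gives the counting tool or its strand setting. The authors deposited raw counts, 1 table per region, and 0 per-sample columns were left unused. Gene symbols came from GENCODE M21, in which 19795 of 19918 IDs were found. The symbol Pcdha11 stood at 2 IDs, and ENSMUSG00000007440 is called Pcdha10 here after RefSeq. No 2 libraries of a group agreed within sampling noise (chi-square per degree of freedom at least 6.6 over 121 pairs per region).

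Each region's counts were tested with edgeR 4.0.16 in R 4.3.3 (robust quasi-likelihood fit, TMM, filterByExpr) with 8 group means and the cohort, which left 19684 NAc genes and 19292 PFC genes. p-values were adjusted over all of these genes by Benjamini-Hochberg. Regions were compared in 1 fit with the animal as a block, since the labels name the same animal for both libraries, and the cohort within region. Alternatives used DESeq2 1.42.0, limma 3.58.1 and the settings in the closing section. The fits were also run on simulated counts with the same spread for every gene, no animal or cohort effect and the genes of lowest counts left out. That simulation therefore cannot check the animal block, the cohort term or such genes. The members, lists and markers were chosen with earlier results of these data known. Named in each comparison were the called members (all if 8 or fewer, otherwise the 4 highest and 4 lowest), or the smallest p where none was called. For XX minus XY they were the 3 highest and 3 lowest with Pcdhb3 and Pcdhb8, for levels the C-type genes and the 3 highest and 3 lowest of each cluster, and of other lists up to 4 called genes. Members named beyond these were chosen after their values were seen.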

Additional observations from a re-analysis of the deposited data

Results flagged for a closer look

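Within the 8 groups of each region, a library counted as standing apart when its gap to the nearest other library was large for the group's range (Dixon's criterion at 95%). Of 144 groups of values examined 14 had such a library. The criterion's rate of about 1 in 20 holds for independent, normally distributed values. The values here are not independent, since the beta sum contains the single beta genes and the same libraries recur. That rate is therefore no measure of how many to await here. All values are CPM.

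Pcdha8 was highest in XXSry stress animal 4 in the NAc (0.811, the others 0.254 to 0.463), in XY-Sry control animal 33 in the NAc (0.426, the others 0.0705 to 0.193) and in XY-Sry control animal 46 in the PFC (0.954, the others 0.0154 to 0.309). Pcdhb8 was highest in XX stress animal 43 (8.86, the others 6.21 to 6.64), XXSry stress animal 4 (7.32, the others 4.84 to 5.54) and XXSry control animal 34 (6.01, the others 4.78 to 5.21), all in the NAc.

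In the PFC, Pcdhb5 was highest in XY- stress animal 41 (7.89, the others 6.29 to 6.80) and XXSry control animal 3 (8.81, the others 7.18 to 7.72), and Pcdhb6 in XXSry stress animal 4 (4.25, the others 2.69 to 3.23). In the NAc of XXSry stress animal 28 Pcdhb1 was lowest (0.868, the others 1.64 to 1.96).

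That NAc library was also lowest for the summed beta cluster (180.4, the others 218.7 to 240.2). The beta sum was highest in XX stress animal 20 in the PFC (195.0, the others 173.0 to 179.6). In the NAc the gamma sum was highest in XX control animal 2 (467.2, the others 386.3 to 409.4) and lowest in XY- control animal 16 (261.0, the others 362.3 to 399.1). No difference between groups in the effect of stress was called for a member.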

How the results depend on the processing

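The count of members called between regions (54) was 54 with no replicate block (33 higher, 21 lower), and between 48 (control animals alone) and 55 under the other alternatives. Those added after seeing the data were limma on within-animal differences, its fits without each animal in turn (53 to 54) and the 24 animals with the least cortical signal. Leaving out each XY- library of the PFC for stress in XY- mice was also added then. Leaving out animals in edgeR's paired fit was not run. For stress and for gonads the count stayed 0 under every alternative, leave-one-out included. The XX minus XY contrast chose the family, so its counts are descriptions and no test of the members. In it the 4 members called in the PFC became 8 in DESeq2 and 8 with no cohort term. They were 2, 0 and 0 within cohorts 1, 2 and 3. Without single libraries they were 3 to 8, with 8 without XY- stress animal 41 and 7 without XY- stress animal 26, XY-Sry stress animals 23 and 30, XX control animal 29 or XXSry stress animal 52. The 2 called in the NAc became 1 with RLE size factors, 1 with the stricter filter and 1 in limma-voom, and 0, 0 and 0 within cohorts, which hold fewer animals. They were 0 to 3 without single libraries, and 33 of 48 libraries moved the count. It was 0 without XX control animal 2, XXSry stress animal 4, XX stress animal 43, XY- stress animals 14 and 31, or XY-Sry control animals 37 and 38. The sign turned in the PFC for Pcdhga1 (0.28 within cohort 3), and in the NAc for Pcdha7 (0.0795 within cohort 2, 0.0131 within cohort 3), Pcdha3 (0.0431) and Pcdhga1 (0.0368, both within cohort 3). The cause was not tested. Per kb of unshared exon, which is shorter by construction, the median level of the members was 2.19 CPM in the NAc and 2.01 in the PFC, against 1.938 and 1.5002 per kb of all exons. Depth limited Pcdha4, Pcdha8 and Pcdhb1, which had libraries at 0.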
